A study of Mus musculus with 4 samples.

Results

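The transcripts of cholesterol synthesis and of its control by sterol regulatory element-binding proteins (SREBPs) were followed in mouse bone marrow-derived macrophages after transfection of an siRNA named Acly-E14. The product of Acly, ATP citrate lyase, supplies cytosolic acetyl-CoA by cleaving citrate. The 28 genes were taken by symbol from the 34745 genes of the deposited table: 9 enzymes from acetyl-CoA to the isoprenoid diphosphates, 12 enzymes from squalene synthesis to cholesterol, and 7 genes of SREBP control and sterol transport. The list does not hold every gene of the pathway, and the others are not analysed here. The compared groups were macrophages given Acly-E14 siRNA and then lipopolysaccharide (LPS), with 2 libraries, and macrophages given control siRNA and LPS, also with 2 libraries. All 4 came from C57BL/6 bone marrow, and the labels give neither the dose and time of LPS nor what E14 stands for. Because LPS was given to both groups, the comparison is between siRNAs in stimulated cells.

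Cholesterol is built from acetyl-CoA through mevalonate, isoprenoid diphosphates, squalene and lanosterol. When membranes of the endoplasmic reticulum are poor in cholesterol, the escort protein SCAP carries SREBPs to the Golgi, where the site-1 and site-2 proteases (Mbtps1 and Mbtps2) release the part that enters the nucleus and switches on most genes of this pathway. INSIG proteins hold SCAP back when sterols are plentiful, and macrophages also regulate the pathway through oxysterols and liver X receptors (LXRs) during inflammation.

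Genes of the pathway rose or were not called. Dhcr7, Hsd17b7, Stard4, Cyp51 and Nsdhl had the largest rises. Of the 28 members, all tested, 13 were higher and 0 lower in the Acly-E14 siRNA libraries, and 15 were not called (edgeR quasi-likelihood test, Benjamini-Hochberg adjusted p under 0.05 over 13108 genes). At an unadjusted p under 0.05, 17 members were higher and 0 lower, beside 3039 higher and 2886 lower among the 13108 genes tested. DESeq2 called 11 members higher and 0 lower, beside 1739 higher and 1661 lower among all genes. Over all genes tested, 33.2% were called, 17.3% as higher and 15.9% as lower, and the members called made up 46.4% of the 28. Of all genes called, 52.0% were higher with TMM scaling and 65.8% with scaling by library totals. The median log2 change of the members was 0.29, beside 0.003 over all genes tested. Both Acly-E14 siRNA libraries lay above both controls for 19 members and below both for 2, while the groups overlapped for 7. Over all genes tested the libraries were ordered in these ways for 35.3% and 35.3%. Leaving out Acly-E14 siRNA library 1 gave 12 members called as higher, and leaving out its library 2 gave 4. Leaving out control library 1 gave 4, and control library 2 gave 8.

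**Figure D1:**
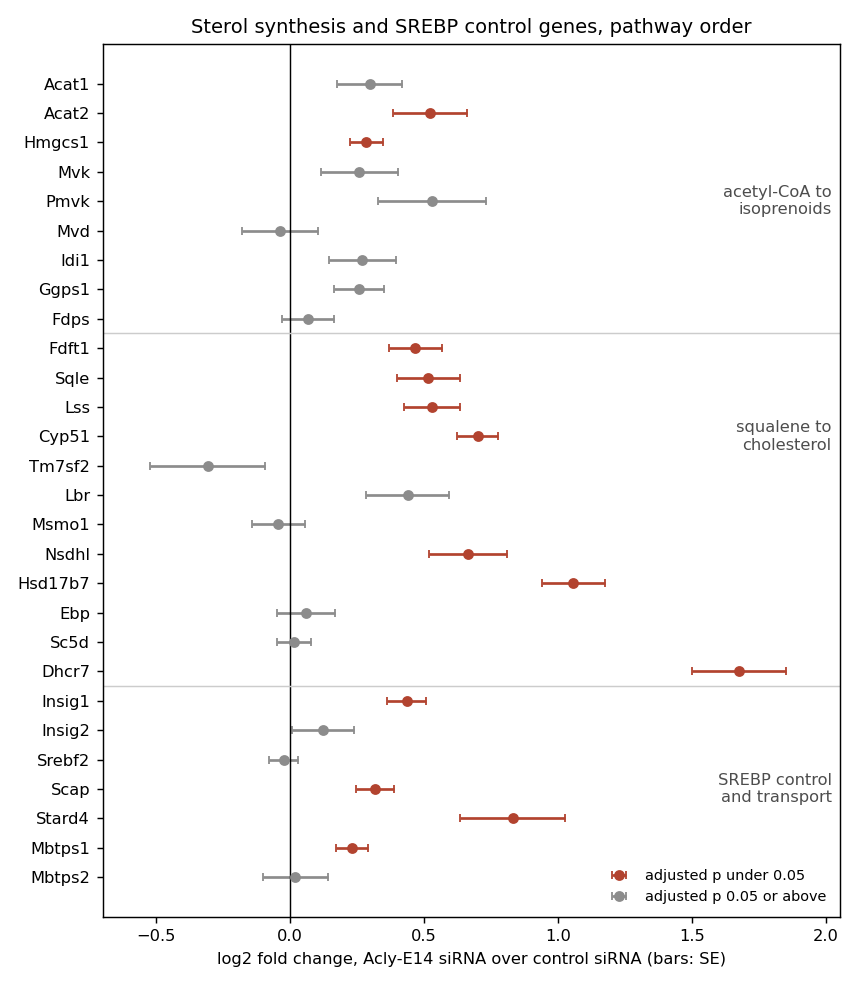
Log2 fold change of each of the 28 members, Acly-E14 siRNA over control siRNA, from top to bottom in pathway order; points are edgeR estimates, bars are SE, and red marks an adjusted p under 0.05. Dhcr7 (1.67) and Hsd17b7 (1.06) stand to the right of the others, and Tm7sf2 (-0.31), which was not called, has the lowest value.

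The libraries held 21323438 and 21086129 counts with Acly-E14 siRNA, and 21023197 and 21837806 with control siRNA. Values below are CPM, counts relative to library size, scaled by trimmed-mean (TMM) factors, and fold changes are Acly-E14 siRNA over control siRNA. All 12 macrophage markers were above 1 CPM in every library, with sums of 9265 and 9774 CPM in Acly-E14 siRNA libraries and 10190 and 9482 CPM in controls. Lyz2 was the largest term of these sums, at 4396 and 4801 CPM with Acly-E14 siRNA and 4929 and 4548 CPM with control siRNA. Of the 12, 3 rose and 6 fell, among them Cd14 (log2 1.03), Cd68 (log2 -0.68) and Mrc1 (log2 -0.63). The 15 fibroblast and stroma markers summed to 2834 and 3546 CPM with Acly-E14 siRNA, against 830 and 1272 CPM with control siRNA. Of the 15, 12 rose and 0 fell in the edgeR test, none was at 0 in every library, and the collagen genes Col1a1 and Col1a2 held the most counts. Of the 5 endothelial markers, 2 fell. Kdr, which made up most of their sum, had 102.8 and 97.6 CPM, against 277.1 and 268.6 CPM in controls, and Cdh5 had 10.1 and 10.9 CPM, against 15.7 and 13.0 CPM. Vwf was not called (95% interval of the log2 change -0.26 to 0.33, adjusted p = 0.85), and Pecam1 and Tek were below 1 CPM and not tested. The 4 T cell and 4 B cell markers stayed below 1 CPM in every library. Among the 6 neutrophil markers, 4 also stayed below 1 CPM. S100a8 rose, with 176 and 237 counts against 129 and 112 in controls (log2 0.70, edgeR adjusted p = 0.043). S100a9 fell, with 3 and 1 counts against 27 and 24 in controls (log2 -3.67, edgeR adjusted p = 0.0054). The part of these differences in the results that follow was not tested, and in bulk RNA fewer cells of a type cannot be told apart from less RNA per cell. Acly itself had 118 and 126 CPM with Acly-E14 siRNA and 158 and 154 CPM with control siRNA, a fall to 0.783 times the control level (log2 -0.35, SE 0.060, edgeR adjusted p = 0.0086, and 0.058 without control library 1).

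Promoter windows are shown for the called enzymes with the largest rises (Dhcr7, Hsd17b7, Cyp51), for Hmgcs1, whose window held the sterol regulatory element letters, and for Insig1, the called regulator whose call held in every fit. They run from 250 bases before to 50 bases after the annotated start, on the gene's strand, 5′ to 3′, and come from RefSeq on GRCm38.p6. The positions are chr7:143822917-143823216 (plus strand) for Dhcr7, chr1:169969156-169969455 (minus) for Hsd17b7, chr5:4104648-4104947 (minus) for Cyp51, chr13:119690101-119690400 (plus) for Hmgcs1 and chr5:28071162-28071461 (plus) for Insig1. Capitals mark CCAAT (the letters bound by NF-Y, a usual partner of SREBPs), GGGCGG (a GC box) and TCACNCCAC (a form of the sterol regulatory element), each read on both strands.
Dhcr7: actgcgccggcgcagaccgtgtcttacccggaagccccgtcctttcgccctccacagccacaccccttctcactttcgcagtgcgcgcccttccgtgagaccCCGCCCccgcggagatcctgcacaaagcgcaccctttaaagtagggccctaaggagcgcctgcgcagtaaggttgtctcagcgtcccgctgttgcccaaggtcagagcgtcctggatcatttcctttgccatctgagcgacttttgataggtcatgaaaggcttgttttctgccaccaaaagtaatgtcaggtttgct
Hsd17b7: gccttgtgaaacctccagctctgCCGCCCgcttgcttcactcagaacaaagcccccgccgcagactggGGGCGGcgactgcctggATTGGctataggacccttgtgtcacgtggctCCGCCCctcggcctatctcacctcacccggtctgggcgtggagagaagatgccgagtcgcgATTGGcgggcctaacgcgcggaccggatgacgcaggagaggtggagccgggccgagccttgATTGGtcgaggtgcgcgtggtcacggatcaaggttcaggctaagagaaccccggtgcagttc
Cyp51: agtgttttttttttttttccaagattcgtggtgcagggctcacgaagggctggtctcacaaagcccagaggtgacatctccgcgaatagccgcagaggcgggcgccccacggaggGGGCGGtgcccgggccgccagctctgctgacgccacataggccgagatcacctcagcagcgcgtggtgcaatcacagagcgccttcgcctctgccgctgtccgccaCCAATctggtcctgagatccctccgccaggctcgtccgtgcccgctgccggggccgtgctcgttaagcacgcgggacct
Hmgcs1: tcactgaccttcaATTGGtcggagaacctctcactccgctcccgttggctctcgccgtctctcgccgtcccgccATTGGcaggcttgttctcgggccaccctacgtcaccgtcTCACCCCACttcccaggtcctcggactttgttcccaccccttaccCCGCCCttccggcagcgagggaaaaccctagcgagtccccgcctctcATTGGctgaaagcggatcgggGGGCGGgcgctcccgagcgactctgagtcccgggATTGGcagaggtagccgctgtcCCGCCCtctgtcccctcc
Insig1: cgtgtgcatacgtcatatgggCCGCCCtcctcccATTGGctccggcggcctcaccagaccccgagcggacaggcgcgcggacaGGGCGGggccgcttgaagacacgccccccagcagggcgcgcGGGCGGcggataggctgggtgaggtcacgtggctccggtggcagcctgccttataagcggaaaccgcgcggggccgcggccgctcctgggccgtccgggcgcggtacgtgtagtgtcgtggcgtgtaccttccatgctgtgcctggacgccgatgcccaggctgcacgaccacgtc

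Windows were found for 23 of the 28 members, and Acat1, Fdps, Fdft1, Sqle and Stard4 had none. CCAAT was present for 19 of the 23 (82.6%), against 41.1% of 27025 genes with a window and 42.8% of the tested genes with one. GGGCGG was present for 20 (87.0%), against 38.2% of all genes with a window and 68.6% of the tested ones. TCACNCCAC was found in the Hmgcs1 window alone, 137 bases before the start, and in 1.44% of all genes. The E-box letters CANNTG were present for 18 members (78.3%), against 75.0% of all genes with a window and 67.2% of the tested ones. CCAAT was held by 7 of the 10 called members with a window and by 12 of the 13 others. Dhcr7 has 3 annotated windows, and its CCAAT letters lay in another window than the one shown. Motif matches describe these letters only.

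In the stretch from acetyl-CoA to the isoprenoids, 2 of 9 enzyme genes rose and 0 fell, beside 17.3% and 15.9% of all genes tested. The median log2 change of the 9 was 0.27. Hmgcs1 encodes the cytosolic synthase that makes HMG-CoA, the compound from which mevalonate is formed. It had 91.3 and 96.7 CPM in Acly-E14 siRNA libraries, against 78.2 and 76.2 CPM in controls. The groups did not overlap, and the rise was small, 1.22-fold (log2 0.28, SE 0.061, edgeR adjusted p = 0.018). Acat2, the cytosolic thiolase that joins acetyl-CoA units ahead of Hmgcs1, was at 9.01 and 8.22 CPM with Acly-E14 siRNA and at 5.96 and 6.03 CPM with control siRNA. It rose 1.44-fold (log2 0.52, SE 0.14, edgeR adjusted p = 0.033). Its mitochondrial counterpart Acat1 had 13.1 and 15.2 CPM, against 11.5 and 11.6 CPM in controls, and was not called (adjusted p = 0.11). The Acat2 call was lost in each fit that left out a library (adjusted p between 0.081 and 0.16) and with DESeq2 (0.15). The Hmgcs1 call was lost without Acly-E14 siRNA library 2 (edgeR adjusted p = 0.11), control library 1 (0.076) or control library 2 (0.081). Acat3, a close paralog of Acat2, had 33 and 24 counts with Acly-E14 siRNA and 17 and 19 with control siRNA, and whether the pair shared reads was not tested.

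The other 7 genes of this stretch were not called. Pmvk, the phosphomevalonate kinase, had 6.68 and 7.35 CPM with Acly-E14 siRNA and 5.66 and 4.07 CPM with control siRNA, a log2 change of 0.53 with a wide interval (95% interval 0.03 to 1.03, adjusted p = 0.094). Mvk, which phosphorylates mevalonate first, had a log2 change of 0.26 (-0.10 to 0.61). Mvd, which decarboxylates the product to isopentenyl diphosphate, had 10.9 and 9.13 CPM, against 9.83 and 10.8 CPM in controls, and the groups overlapped. Idi1, the isomerase of isopentenyl diphosphate, was at 25.6 and 31.8 CPM, above 24.6 and 23.0 CPM in controls. Its Acly-E14 siRNA libraries lay farther apart than its controls (log2 0.27, adjusted p = 0.15). The prenyl transferases close this stretch. Fdps, which makes farnesyl diphosphate, had 22.9 and 24.7 CPM with Acly-E14 siRNA and 23.8 and 21.6 CPM with control siRNA, overlapping, with a 95% interval of -0.17 to 0.31 for the log2 change. Ggps1, which makes geranylgeranyl diphosphate, had 28.6 and 32.1 CPM against 25.3 and 25.4 CPM (log2 0.26, adjusted p = 0.081), and passed the threshold when scaled by library totals (0.041) or fitted by limma as FPKM (0.032 and 0.033 for the 2 pseudocounts).

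**Figure D2:**
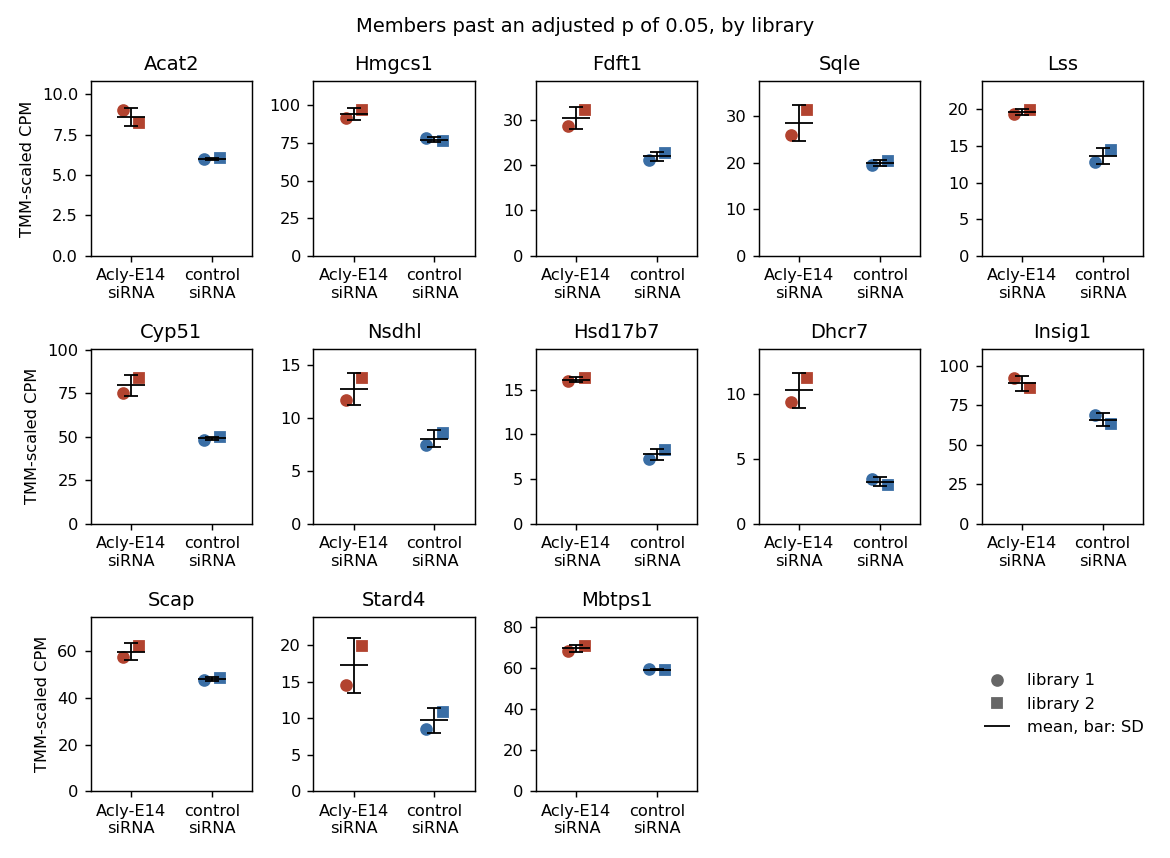
TMM-scaled CPM of the 13 called members in each library, Acly-E14 siRNA on the left of each panel and control siRNA on the right; circles are library 1, squares library 2, and the bar is mean and SD of 2 libraries. Every panel starts at 0. The genes were chosen by their calls in these same libraries, and in each the Acly-E14 siRNA libraries lie above both controls. That order held for 35.3% of all genes tested.

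Downstream of the isoprenoids, 7 of 12 enzyme genes rose and 0 fell, beside 17.3% and 15.9% of all genes tested. The median log2 change of the 12 was 0.49. The run from squalene to the first demethylation was called throughout: Fdft1 (squalene synthase), Sqle (squalene epoxidase), Lss (lanosterol synthase) and Cyp51 (lanosterol demethylase). Cyp51 had 75.4 and 83.9 CPM in Acly-E14 siRNA libraries, against 48.4 and 49.8 CPM in controls, a 1.62-fold rise (log2 0.70, SE 0.075, edgeR adjusted p = 0.0024). Sqle stood at 25.8 and 31.3 CPM with Acly-E14 siRNA and at 19.5 and 20.4 CPM with control siRNA (1.43-fold, edgeR adjusted p = 0.021). For Lss the values were 19.3 and 19.9 CPM with Acly-E14 siRNA and 12.8 and 14.4 CPM with control siRNA (1.44-fold, adjusted p = 0.014). Fdft1, the first enzyme committed to sterols, had 28.6 and 32.1 CPM, against 21.2 and 22.7 CPM in controls (1.38-fold, adjusted p = 0.017). None of these 4 genes overlapped between the groups. Both Acly-E14 siRNA libraries lay above both controls for 35.3% of all genes tested. Without Acly-E14 siRNA library 2 the adjusted p was 0.083 for Fdft1, 0.088 for Sqle and 0.068 for Lss, and without control library 1 it was 0.088, 0.11 and 0.074 in that order. Sqle was also lost without control library 2 (0.066).

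Among the enzymes that reshape lanosterol, Hsd17b7 and Nsdhl were called and Msmo1 was not. Removal of a pair of methyl groups from the sterol ring is shared by Msmo1 (an oxidase), Nsdhl (a decarboxylating dehydrogenase) and Hsd17b7 (a ketosterol reductase). Hsd17b7 had 349 and 358 counts with Acly-E14 siRNA and 147 and 176 counts with control siRNA, a 2.08-fold rise (log2 1.06, SE 0.12, edgeR adjusted p = 0.0026). Nsdhl had 11.7 and 13.8 CPM with Acly-E14 siRNA and 7.45 and 8.60 CPM with control siRNA, a 1.58-fold rise (adjusted p = 0.019, and 0.11 without Acly-E14 siRNA library 2 or 0.090 without control library 1). Msmo1, which opens the sequence, had 34.3 and 31.8 CPM against 36.5 and 31.8 CPM, and the 95% interval of its log2 change was -0.29 to 0.20. Within each library the ratio of Hsd17b7 to Msmo1, in fragments scaled by gene length and library total (FPKM), was 0.829 and 0.917 with Acly-E14 siRNA and 0.357 and 0.462 with control siRNA. This ratio was chosen after its values were seen, and the difference in response between these genes was not tested.

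A pair of enzymes can reduce the sterol double bond left by Cyp51. Lbr, which also encodes the lamin B receptor of the nuclear envelope, had 11.9 and 15.3 CPM with Acly-E14 siRNA, against 9.58 and 10.5 CPM with control siRNA (log2 0.44, adjusted p = 0.078), and passed the threshold with a replicate block (0.043) and without Acly-E14 siRNA library 1 (0.045). Tm7sf2 had 2.38 and 2.60 CPM against 3.23 and 2.95 CPM (log2 -0.31, adjusted p = 0.32), on 52 to 65 counts per library. The FPKM ratio of Lbr to Tm7sf2 was 4.59 and 5.39 with Acly-E14 siRNA and 2.73 and 3.26 with control siRNA. Whether Lbr and Tm7sf2 differed in response was not tested. Tm7sf2 shares 532 exon bases on its own strand with Vps51, which had 635 to 770 counts per library. The effect of this overlap on the Tm7sf2 counts was not tested.

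The last steps held the member with the largest change and members that were not called. Dhcr7, which reduces dehydrocholesterol to cholesterol, had 9.37 and 11.3 CPM with Acly-E14 siRNA and 3.48 and 2.99 CPM with control siRNA. This was a 3.19-fold rise (log2 1.67, SE 0.18, edgeR adjusted p = 0.0023), on 205 and 247 counts against 70 and 64. It ranked 420th of the 13108 genes tested by log2 change, within the top 3.20%. Sc5d, the desaturase that acts just before it, had 54.3 and 53.3 CPM, against 54.2 and 52.5 CPM in controls, with a 95% interval of -0.14 to 0.17 for the log2 change. Ebp, the isomerase ahead of Sc5d, had 19.5 and 18.4 CPM against 19.5 and 16.9 CPM. Whether Dhcr7 and these neighbours differed in response was not tested.

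Added over the 21 enzymes, the pathway took 524 and 562 CPM in Acly-E14 siRNA libraries and 434 and 427 CPM in controls, 1.26 times the control mean. Without Hmgcs1, the enzyme with the most counts, the ratio was 1.27. The 9 earlier enzymes summed to 216 and 232 CPM, against 191 and 185 CPM in controls. The 12 later ones summed to 309 and 330 CPM with Acly-E14 siRNA and 243 and 242 CPM with control siRNA. Sums give most weight to Hmgcs1, Cyp51 and Sc5d.

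**Figure D3:**
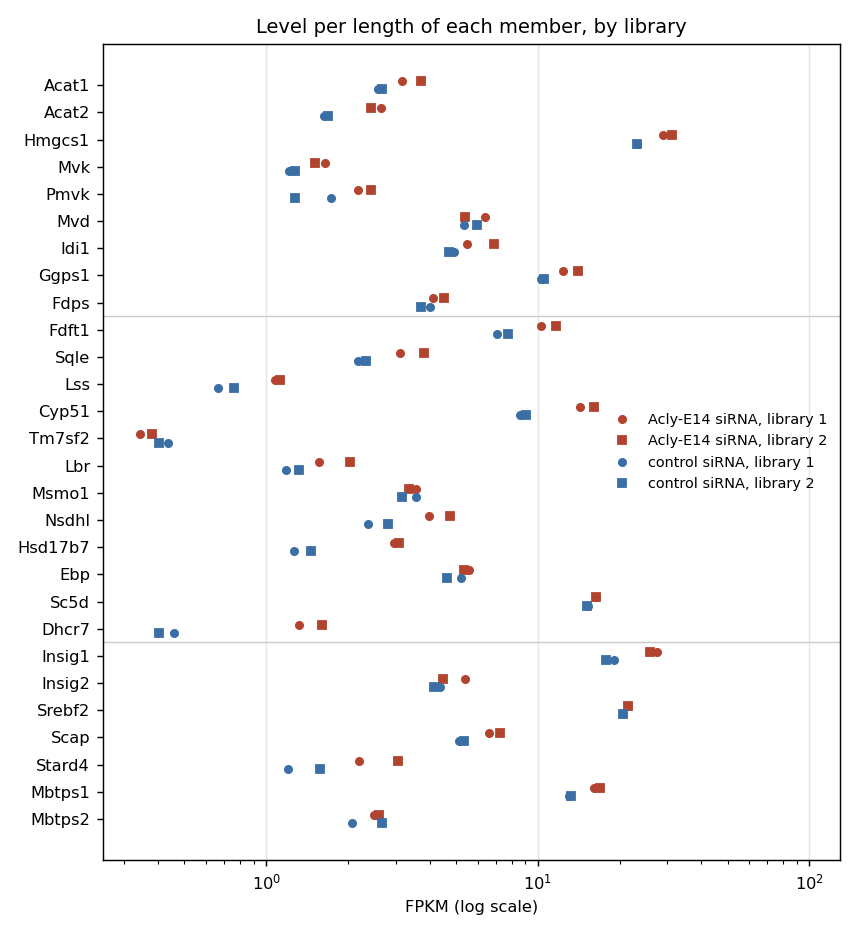
FPKM of each member in each library on a log axis, Acly-E14 siRNA in red above control siRNA in blue; circles are library 1 and squares library 2. Hmgcs1, Insig1 and Srebf2 lie between 17.9 and 31.1 FPKM, and Tm7sf2 and, in controls, Dhcr7 lie below 0.5 FPKM.

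Per length, levels spanned a wide range along the route. In FPKM, which divides by gene length, Hmgcs1 averaged 30.0 with Acly-E14 siRNA and 23.1 with control siRNA, and Sc5d 16.4 and 15.2. Cyp51 averaged 15.2 FPKM, against 8.79 in controls. The lowest enzymes were Lss at 1.10 and 0.714 FPKM, Tm7sf2 at 0.360 and 0.419, and Dhcr7 at 1.46 and 0.430, each with Acly-E14 siRNA before control siRNA. With merged exon lengths of the GENCODE M21 annotation in place of the length behind the deposited FPKM, Dhcr7 and Tm7sf2 were still the lowest of the 28 in controls, at 0.538 and 0.679. Insig1 was then the highest at 20.6, ahead of Hmgcs1 at 16.3.

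Among the 7 regulators and transport genes, Insig1, Scap, Mbtps1 and Stard4 rose and 0 fell, beside 17.3% and 15.9% of all genes tested. The median log2 change of the 7 was 0.23. Insig2, Srebf2 and Mbtps2 were not called. Srebf2, which encodes SREBP2, the main activator of sterol genes, had 104.2 and 103.5 CPM with Acly-E14 siRNA and 106.9 and 104.4 CPM with control siRNA. Its log2 change was -0.02 by CPM (95% interval -0.16 to 0.11, adjusted p = 0.76), and in FPKM, which uses library totals, the order was the opposite, 21.4 and 21.6 against 20.5 and 20.5. Scap had 57.3 and 62.3 CPM, against 47.5 and 48.5 CPM in controls, and rose 1.25-fold (edgeR adjusted p = 0.021). That call was lost without Acly-E14 siRNA library 2 (0.13), control library 1 (0.096) or control library 2 (0.065).

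Insig1, a sterol-responsive target of SREBPs that restrains SCAP, had 92.4 and 85.8 CPM with Acly-E14 siRNA and 68.8 and 63.1 CPM with control siRNA. It rose 1.35-fold (log2 0.44, SE 0.073, edgeR adjusted p = 0.0085), and the call held in all 4 fits that left out a library (adjusted p between 0.028 and 0.043). Insig2, its paralog, had 39.9 and 32.6 CPM against 34.5 and 32.1 CPM, and the groups overlapped (log2 0.12, 95% interval -0.16 to 0.41). The ratio of Insig1 to Insig2 in FPKM was 5.07 and 5.76 with Acly-E14 siRNA, against 4.37 and 4.30 with control siRNA. With merged exon lengths, chosen after seeing the data, it was 2.60 and 2.95 with Acly-E14 siRNA and 2.24 and 2.21 with control siRNA.

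Of the proteases, Mbtps1 was at 68.5 and 71.0 CPM with Acly-E14 siRNA and at 59.5 and 59.2 CPM with control siRNA, a rise of 1.17-fold (edgeR adjusted p = 0.032). Each fit that left out a library lost this call (adjusted p between 0.089 and 0.17), as did DESeq2 (0.12) and a fit without a filter on low counts (0.064). Mbtps2 had 37.2 and 38.3 CPM, inside the range of the controls at 32.9 and 41.7 CPM (log2 0.02, 95% interval -0.28 to 0.32). Mbtps2 shares 2867 exon bases on its own strand with Yy2, which had 115 and 111 counts with Acly-E14 siRNA and 107 and 10 counts with control siRNA. The control library with 10 Yy2 counts was the one with the higher Mbtps2 value, and the counts of this pair are uncertain. Stard4, a cytosolic sterol carrier, had 14.6 and 19.9 CPM, against 8.49 and 10.9 CPM in controls. It rose 1.78-fold (log2 0.83, SE 0.20, edgeR adjusted p = 0.024), with no overlap between the groups. Its adjusted p was 0.10 without Acly-E14 siRNA library 2, 0.12 without control library 1 and 0.056 without a filter on low counts.

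Library 2 was the higher of the Acly-E14 siRNA pair for 19 of 28 members, against 49.9% of all genes tested, and the higher of the control pair for 15. The sum of the fibroblast and stroma markers was also higher in library 2 of each group, though not every marker was (Fap, Thy1 and Postn were exceptions). Of the 28 members, 11 share exon bases with another annotated gene, 5 of them called. Fdft1 shares 774 exon bases with Ctsb on the opposite strand. Ctsb had 240347 and 231089 counts with Acly-E14 siRNA and 270826 and 288141 with control siRNA, against 427 to 703 for Fdft1, and Ctsb was lower (log2 -0.32, edgeR adjusted p = 0.016) where Fdft1 was higher. Cyp51 shares 166 bases with Akap9 on the opposite strand, and Fdps shares 1124 bases with Gm43738 on its own. How the counting used strand is not given in the sources used here.

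Genes around the pathway were read from lists of related genes. Of 18 other SREBP targets, with Srebf1 among them, 12 rose and 1, Acly, fell, with a median log2 change of 0.72. The shares over all genes tested were 17.3% higher and 15.9% lower. Aacs, which makes acetoacetyl-CoA from ketone bodies in the cytosol and so feeds the pathway beside ATP citrate lyase, had 29.1 and 30.6 CPM with Acly-E14 siRNA and 17.3 and 18.0 CPM with control siRNA, a 1.69-fold rise (edgeR adjusted p = 0.0028). Among its fatty acid genes, Elovl5, an elongase of polyunsaturated chains, had 27.0 and 28.9 CPM with Acly-E14 siRNA and 7.35 and 8.69 CPM with control siRNA (3.48-fold, edgeR adjusted p = 0.00086). Fasn, the fatty acid synthase, had 65.5 and 72.0 CPM, against 19.0 and 27.9 CPM in controls (2.93-fold, adjusted p = 0.0027). Elovl6, an elongase of saturated chains, had 6.95 and 9.27 CPM, against 1.44 and 2.01 CPM in controls (adjusted p = 0.0028). These 4 genes were called in each fit that left out a library. Srebf1 was not called (log2 0.14, adjusted p = 0.16).

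Partners that sterol enzymes need in the endoplasmic reticulum included 3 rises among 7 genes, with 0 falls. Among all genes tested, 17.3% were higher and 15.9% lower. Por, the reductase that passes electrons to Cyp51 and Sqle, had 207 and 211 CPM with Acly-E14 siRNA and 152 and 159 CPM with control siRNA (1.34-fold, edgeR adjusted p = 0.0037). Pgrmc1, a haem-binding partner of cytochromes P450 including Cyp51, had 59.5 and 66.4 CPM, against 41.2 and 42.7 CPM in controls, and rose (SE 0.079 on the log2 scale, adjusted p = 0.0044). Erg28, known in yeast as the scaffold that tethers the demethylation enzymes, had 14.4 and 12.9 CPM, against 8.14 and 7.81 CPM in controls, a 1.71-fold rise (adjusted p = 0.0069). These 3 calls held in every fit that left out a library.

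Genes that use farnesyl and geranylgeranyl diphosphate for other products were mostly not called. Of 14, 0 rose and 1 fell in the edgeR test, beside 17.3% and 15.9% of all genes tested. Their median log2 change was -0.19. At an unadjusted p under 0.05, 0 were higher and 3 lower, beside 3039 higher and 2886 lower among the 13108 genes tested. The called fall was that of Nus1, a subunit of the enzyme that makes dolichol precursors. Nus1 had 145.4 and 144.9 CPM with Acly-E14 siRNA and 180.1 and 171.8 CPM with control siRNA (log2 -0.28, edgeR adjusted p = 0.013). With single libraries left out its adjusted p lay between 0.041 and 0.084, and the call held only when control library 2 was the one omitted. In the machinery that degrades sterol-regulated proteins, 2 of 12 genes were higher and 3 lower, beside 17.3% and 15.9% of all genes tested. Rnf145, a ubiquitin ligase linked to sterol control, rose 1.25-fold (adjusted p = 0.011). Rnf139 (log2 -0.22, adjusted p = 0.031) and the segregase gene Vcp (log2 -0.24, 0.016) fell. Neither fall was called with scaling by library totals (edgeR adjusted p = 0.099 for Rnf139 and 0.055 for Vcp) or with limma on FPKM. Rnf139 was also not called with DESeq2 (adjusted p = 0.057) or with no filter on low counts (edgeR adjusted p = 0.055). Each of these 3 calls was lost without at least 3 of the 4 libraries in turn, with adjusted p up to 0.062 for Rnf145, 0.15 for Rnf139 and 0.089 for Vcp.

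**Figure D4:**
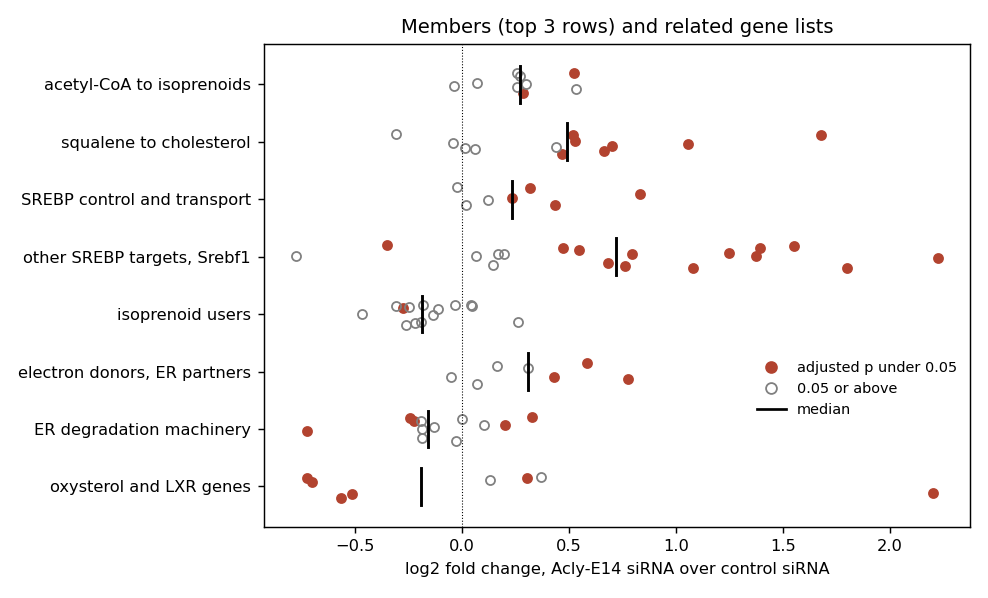
Log2 fold change, Acly-E14 siRNA over control siRNA, of each gene in the 3 groups of members (top rows) and in the 5 lists of related genes; filled red points passed an adjusted p of 0.05 and the black line is the median. Medians are 0.27, 0.49 and 0.23 for the member groups, 0.72 for other SREBP targets and -0.19 for isoprenoid users.

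Oxysterol and LXR genes went both ways, with 2 of 8 higher and 4 lower, beside 17.3% and 15.9% of all genes tested. Cyp7b1, which breaks down oxysterols, had 4.76 and 4.34 CPM with Acly-E14 siRNA and 0.844 and 1.12 CPM with control siRNA (4.59-fold, edgeR adjusted p = 0.0028). Cyp27a1, which makes an oxysterol, fell (log2 -0.70, edgeR adjusted p = 0.013, up to 0.069 with single libraries left out, called only when control library 2 was omitted). The LXR gene Nr1h3 fell (log2 -0.51, adjusted p = 0.0058), as did its target Abcg1 (log2 -0.57, 0.0046). Mylip, also of this list, fell (log2 -0.725, edgeR adjusted p = 0.025). It had 69 and 75 counts with Acly-E14 siRNA and 109 and 117 with control siRNA. Abca1, another LXR target, rose, with 133.9 and 153.4 CPM in Acly-E14 siRNA libraries, against 116.2 and 116.5 CPM in controls (log2 0.30, adjusted p = 0.030). The Abca1 call was lost without Acly-E14 siRNA library 2 (edgeR adjusted p = 0.13), control library 1 (0.13) or control library 2 (0.11), and with no filter on low counts (0.069). Fibroblast and stroma markers stood at 3.04 times the control mean in sum, with a median log2 change of 1.47. Their part in the changes of these lists was not tested.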

How the data were processed

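RNA of 4 libraries was compared. The submitters' processing notes name HISAT2, StringTie 1.3.0, edgeR and build mm10, without roles, with no counting program, strand setting or annotation stated. The authors deposited whole-number counts per gene, with no normalization per the file headers, and FPKM values. The FPKM the authors deposited equalled count over an implied gene length and the column total for 49103 of 49103 values compared (relative tolerance 0.001). The length came from the deposited FPKM of each gene's library with the most counts, so that value matches by construction. The implied length matched merged GENCODE M21 exons for 2936 of 18116 genes, so FPKM compares genes only roughly. FPKM was recomputed from counts here, since 1 value column carries no replicate number and was not used.

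The test was that of edgeR 4.0.16 under R 4.3.3 (filterByExpr, minimum count 10, TMM factors, quasi-likelihood F test, no covariates). The SE is the log2 change over the square root of F, and 95% intervals use it. With 2 libraries a group, an exact permutation test of 1 value cannot fall below p = 0.333, so the tests borrow spread across genes. No label states separate cultures or animals, and the p-values therefore reflect the variation among these 4 libraries, possibly technical. Alternatives were a replicate block, leaving out each library, RLE factors, library totals, DESeq2 1.42.0, no filter, limma 3.58.1 on log2(FPKM + 1) or log2(FPKM + 0.1), an adjusted p under 0.1 and leaving out mitochondrial genes. The tests were tried on simulated data. The members and gene lists were chosen with earlier results of these data known. All members were accounted for. Named besides were Acly and, in each related list, every called gene or, where more than 4 were called, the 4 of smallest p. The result of 1 such gene is not reported here. Srebf1, Abca1, Mylip and the marker and overlapping genes were added after their values were seen. Coordinates are GRCm38 (mm10).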

Additional observations from a re-analysis of the deposited data

How the results depend on the processing

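Each of the 13 called members kept its direction under all 12 refits (5 other tools or scalings, 4 left-out libraries, a replicate block, no filter, no mitochondrial genes), and 4 of them (Cyp51, Hsd17b7, Dhcr7, Insig1) passed the threshold in all of these. Counts of members called as higher ranged from 4 to 12 when single libraries were left out, and all genes from 1045 to 1815 higher and from 982 to 1400 lower. The cause was not tested, beyond there being fewer libraries. The log2 change of Acly without single libraries ranged from -0.40 to -0.30, and its call was lost at -0.34 without control library 1. Libraries with the same number deviated together only weakly (correlation 0.144 across 13108 genes, with 2 pairs). This value cannot decide whether the numbers pair the libraries, and the main fit took them as unpaired. With the replicate block 2514 genes were higher and 2382 lower, and 14 members higher, Lbr added. Library totals alone moved the median log2 change of all genes to 0.094, against 0.003 with TMM. Lower genes numbered 1389 with limma on log2(FPKM + 1) and 1383 with a pseudocount of 0.1, and calls were then 65.8% higher, as with library totals alone (65.8%), against 52.0% with TMM. The enzyme sum averaged 449 CPM with Acly-E14 siRNA and 353 CPM with control siRNA without Hmgcs1, and the control mean was 417 CPM by library totals. With merged exon lengths, chosen after seeing the data, the Insig1 to Insig2 ratio averaged 2.77 with Acly-E14 siRNA and 2.22 with control siRNA, and that of Acat1 to Acat2 1.12 and 1.302. At an adjusted p under 0.1, 16 members were higher and 0 lower, beside 2943 higher and 2781 lower among the 13108 genes tested. The letters CACCCCAC were present for 2 members. Genes with under 100 counts, such as Tm7sf2 and control values of Dhcr7, are limited by depth.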

Other observations

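Ube2g2, which encodes a ubiquitin-conjugating enzyme of the degradation list, differed by library number rather than by group. It had 23.8 and 45.0 CPM in Acly-E14 siRNA libraries 1 and 2, against 25.3 and 43.4 CPM in control libraries 1 and 2. This gene was chosen after its values were seen.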
